A study of Mus musculus with 12 samples.

Results

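The baseline transcriptome of the retinal pigment epithelium (RPE) of wild-type (WT) mice is described here from 6 of the 12 libraries of the study. The 6 WT libraries were chosen by their labels alone, and the genes are ordered by their mean normalized count over these 6 libraries. The mice were C57BL/6J with the label wt, 1 mo of age, and each library was made from the RPE of both eyes combined. The study used males and females unless it stated otherwise, and the labels give no sex for a library. The 6 libraries of rd6 mice are not described here. No groups are compared, so that each value is a level, a share or a spread over 6 libraries, and no p-values are given.

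The RPE is a single layer of pigmented cells between the photoreceptors and the choroid. Its apical surface holds the photoreceptor outer segments, whose shed tips it engulfs and digests in lysosomes, and its basal surface rests on Bruch's membrane. It turns all-trans retinoid back into 11-cis retinal in the visual cycle, moves ions, water, lactate and glucose between blood and retina, makes melanin, and secretes proteins to both sides.

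The libraries were of total RNA depleted of ribosomal RNA, and 28591 genes had a deposited value, of which 27818 had at least 1 read in a WT library. A library had between 29218135 and 33152725 reads on genes. The value of 3 reads lay between 2.90 and 3.32 normalized counts, which is the level below which a gene is treated as not measurable here. The counts of all 15 pairs of WT libraries differed beyond counting error, since their chi-square was 9.45 or higher per gene, and each library is counted as 1 sample. WT replicate 4 stood apart by the SD of its log2 differences from the other libraries, which was 0.658 to 1.03 over genes whose mean reached 100. In the 10 pairs without WT replicate 4 the SD was 0.334 to 0.642. By the median absolute log2 difference the pairs overlapped, at 0.174 to 0.226 with WT replicate 4 and 0.0968 to 0.21 without it. The libraries are replicates by their labels, and the spread between them may be technical in part. Where a result rests on WT replicate 4, its value is set beside those of the other 5 libraries. As a background for counts of list members, of all 12757 genes whose mean reached 100 the share with their highest value in WT replicates 1 to 6 was 24.3, 8.12, 8.43, 22.9, 24.2 and 12.1%, and the share with their lowest value there was 17.9, 13.3, 8.95, 32.4, 17.9 and 9.56%.

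A mean of at least 10 normalized counts was reached by 17706 genes, and 14480 of them were protein coding. A mean of at least 100 was reached by 12757 genes, of at least 1000 by 5459, of at least 10000 by 359 and of at least 100000 by 26. These last 26 genes held 22.5% of all reads on genes. The gene with the most reads held 2.63% ± 0.247 (SD, n = 6), and the first 10 held 14.4% ± 1.11. The share of these 10 was lowest in WT replicate 4, at 12.6%, and highest at 15.7%. The 525 genes with the most reads held 50% of the reads, and 5741 genes held 90%.

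The 4 genes with the most reads were Ptgds, Ttr, mt-Co1 and Rgr. In the GENCODE M21 annotation of mm10, Ptgds (ENSMUSG00000015090) spans chr2:25466709-25470046 and Rgr (ENSMUSG00000021804) chr14:37034909-37048964, both on the minus strand. Ptgds makes prostaglandin D2 and is also secreted as a carrier of lipophilic molecules. Its normalized counts in WT replicates 1 to 6 were 776103, 759217, 859134, 674539, 961772 and 896200.0. Ttr, the transthyretin that carries thyroxine and, with retinol binding protein, retinol, had 689868, 667171, 715378, 543596, 843724 and 763070.0. Rgr, an opsin of the RPE and Mueller glia that binds all-trans retinal, had 635405, 622781, 627165, 472739, 711302 and 665822. All 3 genes were lowest in WT replicate 4 and highest in WT replicate 5. Ptgds had more reads than Ttr in 6 of 6 libraries, and mt-Co1, a subunit of cytochrome c oxidase, had more than Rgr in 6 of 6. Ttr and mt-Co1 could not be put in order, since Ttr was ahead in 3 libraries of 6.

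**Figure D1:**
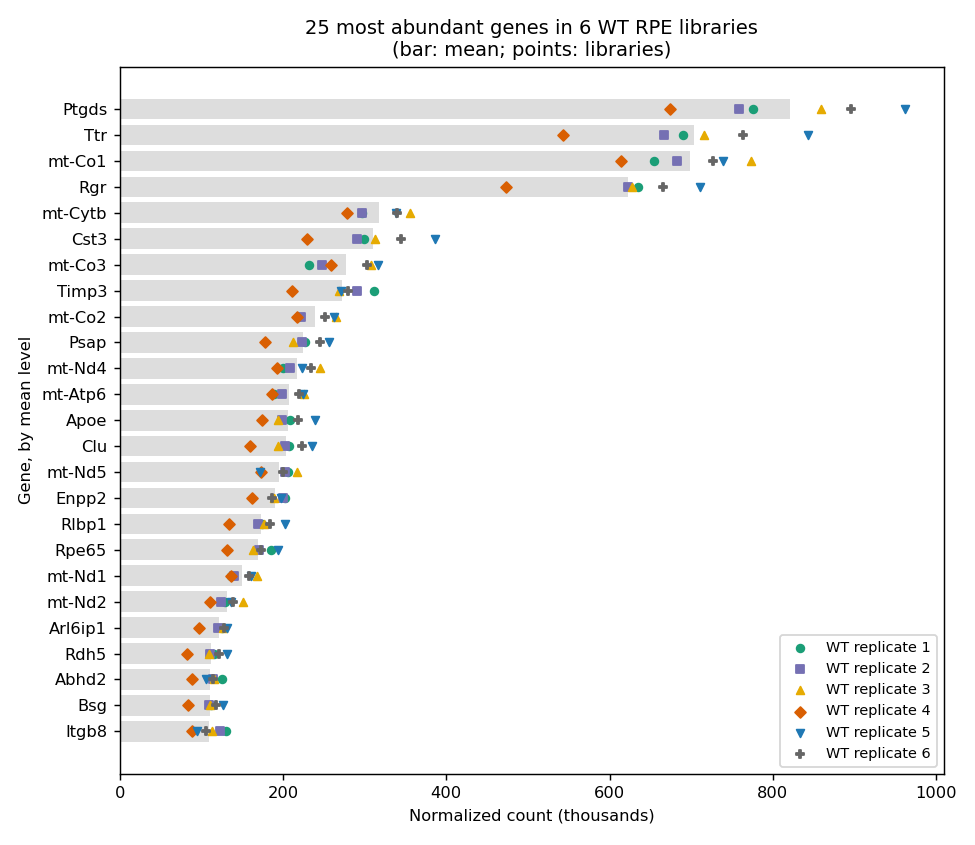
The 25 genes with the most reads in the 6 WT libraries, ordered by their mean normalized count (linear axis from 0, in units of 1000). Grey bars are means and each point is 1 library. WT replicate 4 has the lowest value of Ptgds (674539), Ttr (543596) and Rgr (472739), while the mitochondrial genes are spread over a narrower range.

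Of the 25 genes with the most reads, 9 were mitochondrial and 12 were in the lists of RPE functions, metabolism, complement and reference genes. They varied little: the SD of log2(normalized count + 1) lay between 0.118 and 0.253. Neighbours in the order often exchanged places between libraries. Rlbp1, the retinal carrier CRALBP, had 173187 ± 22531 and was ahead of Rpe65, the isomerase of the visual cycle, with 169474 ± 21315, in 4 libraries of 6. Apoe, which carries lipid, had 205537 ± 22103 and was ahead of Clu, an extracellular chaperone with 203612 ± 26329.5, also in 4 of 6. Rdh5, the dehydrogenase that makes 11-cis retinal, had 111849 ± 16583 but was ahead of Abhd2 in only 2 of 6, and Bsg, the partner protein of the lactate transporters, was ahead of the integrin gene Itgb8 in 2 of 6. Of the 25 nuclear genes with the most reads, 24 had their lowest value in WT replicate 4 and 14 had their highest in WT replicate 5.

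Reads favour long transcripts, and the normalized counts given here for different genes are not corrected for length. Levels per length are given as reads per exon length scaled to the same total in each library (TPM). On this scale Ttr came first with 46152 ± 4437 TPM (SD, n = 6), and Ptgds came second with 38740.2 ± 2871, behind Ttr in 6 of 6 libraries. The order of these genes was thus the reverse of their order by reads. The next 5 were mitochondrial, from mt-Co1 at 35246 TPM to mt-Cytb at 21626, and Cst3, the secreted cysteine protease inhibitor cystatin C, came eighth with 19049 ± 2299. Rgr was twelfth with 10130.2 ± 989, Apoe had 7491, Rpe65 6833, Psap, the precursor of the saposins that assist lysosomal lipid breakdown, 6358, and Rlbp1 4564. The long transcripts lost rank. Timp3, a matrix metalloproteinase inhibitor of Bruch's membrane, went from rank 8 by reads to 30 per length (2611 TPM), Abhd2 from 23 to 100 and Itgb8 from 25 to 108. Of the 25 genes first by reads, 20 were also among the 25 first per length, and 12 of those 25 were mitochondrial. One of the 25 is Gm23935, a miRNA entry of 57 bases that lies within a coding gene, and its 5131 TPM rests on reads longer than the entry itself, so that its level per length is uncertain.

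Genes of the mitochondrial chromosome held 8.23% ± 0.544 of the reads, from 7.64% in WT replicate 1 to 9.15% in WT replicate 3. The 13 protein-coding genes made up 8.15% and the ribosomal RNA genes only 0.0813%. A further 8 pseudogenes within 20 kb of Gm28437 on chromosome 1, where the mouse nuclear genome holds an inserted copy of mitochondrial sequence, held 0.152% ± 0.0143, and reads that match both places cannot be assigned with certainty. Protein-coding genes held 95.3% ± 0.251 of the reads in all.

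Processed pseudogenes held 3.56% ± 0.254 of the reads, spread over 4059 genes of the table, of which 1675 had a mean of at least 10. Gpx4-ps2 held 6.19 times the reads of Gpx4, the glutathione peroxidase that protects membrane lipids, and was at 5020.0 TPM per length against 375. Tpt1-ps3 was at 21.4 times the TPM of Tpt1 and Atp6v0c-ps2 at 25.6 times that of Atp6v0c, a subunit of the proton pump, while Ubb-ps was at 1.02 times that of Ubb. A pseudogene and its source share most of their sequence, so that the levels of both are uncertain, and a high value of the copy does not show that it is transcribed. The same holds for the 82 ribosomal protein genes, which held 0.429% ± 0.0703 of the reads while the 222 pseudogenes named after ribosomal proteins held 0.391% ± 0.0715. Gapdh, often used as a reference gene, has many processed copies too, and its level was 26.7 TPM, against 578 for Actb and 1808 for Eef1a1.

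Long intergenic RNA genes held 0.385% ± 0.0529 of the reads. Gm42418, an entry that overlaps ribosomal RNA sequence, had 13998 and 15202 in WT replicates 1 and 2, 30413 in WT replicate 4 and 27027 to 28953 in the other 3. The nuclear RNAs Malat1 and Neat1 varied more: Malat1 had 13893, 7950.4, 7271, 9353, 3381 and 4359 in WT replicates 1 to 6, and Neat1 9175, 7362, 4651, 8871, 3258 and 3910.3. WT replicates 5 and 6 had the lowest values of both. Transcripts beside the genes of eye transcription factors were steadier. Six3os1 had 6715 ± 1393, and Otx2os1 had 1988 ± 219 with an SD of log2 of 0.17. Both lie beside or over other genes, and reads were counted with standard settings, which by default do not use strand.

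The 14 genes of the visual cycle list held 6.81% ± 0.653 of the reads, from 5.58% to 7.54%, and 9 of them had a mean of at least 10000. Beside Ttr, Rgr, Rlbp1, Rpe65 and Rdh5, these included Rdh10, which oxidizes all-trans retinol, with 105586 ± 10479, Lrat, the enzyme that makes retinyl esters, with 96168 ± 14673, and Stra6, the receptor for retinol binding protein, with 50944 ± 8789. The chain from uptake to 11-cis retinal was thus covered by genes of rank 2 to 44 by reads. Rdh12, the dehydrogenase of photoreceptors, was at only 309, and Rbp4, the retinol carrier of blood plasma, at 53. Ttr made up 33.1% of the list, and 11 of the 12 members with a mean of at least 100 were lowest in WT replicate 4, as were 32.4% of all 12757 genes. The sum was 1626622 in that library and between 2101319.6 and 2440054 in the other 5.

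The start regions of 2 of these genes and of 2 melanin genes are shown because they hold the letters that the factors OTX2 and MITF are known to bind. Otx2 and Mitf were both present, with mean normalized counts of 23161 ± 2419.8 and 3105 ± 261. Each sequence is the 200 bases before the RefSeq start on GRCm38.p6, 5′ to 3′ on the gene's strand, and capitals mark GGATTA or TCATGTG or their reverse complements.
Rgr, chr14:37049015-37049214, minus strand: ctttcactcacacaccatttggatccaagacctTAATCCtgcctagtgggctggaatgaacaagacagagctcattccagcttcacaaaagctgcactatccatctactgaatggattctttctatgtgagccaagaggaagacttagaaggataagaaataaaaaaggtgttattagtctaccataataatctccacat
Rpe65, chr3:159598981-159599180, plus strand: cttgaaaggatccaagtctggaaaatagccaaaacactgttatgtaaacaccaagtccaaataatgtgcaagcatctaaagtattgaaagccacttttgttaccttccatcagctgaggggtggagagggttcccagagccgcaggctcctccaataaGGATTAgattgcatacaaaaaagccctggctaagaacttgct
Tyr, chr7:87493513-87493712, minus strand: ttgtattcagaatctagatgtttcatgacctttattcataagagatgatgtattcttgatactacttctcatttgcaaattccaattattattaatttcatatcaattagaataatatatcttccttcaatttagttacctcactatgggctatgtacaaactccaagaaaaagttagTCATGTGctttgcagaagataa
Dct, chr14:118052247-118052446, minus strand: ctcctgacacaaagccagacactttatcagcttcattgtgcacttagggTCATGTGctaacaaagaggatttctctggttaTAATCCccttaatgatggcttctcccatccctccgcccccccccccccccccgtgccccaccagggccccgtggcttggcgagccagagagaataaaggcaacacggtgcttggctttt

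Over the 300 bases from 250 before to 50 after a start, on both strands, GGATTA was found for 8.14% of 27025 genes in the RefSeq table. It was found for 5 of the 11 RPE marker genes with an entry (45.5%), namely Rpe65, Best1, Rgr, Mfrp and Tyrp1, and for 15.9% of the 63 genes with an entry among the 100 with the most reads. TCATGTG was found for 4.31% of all genes and for 5 of the 14 melanin genes with an entry (35.7%), namely Tyr, Tyrp1, Dct, Slc24a5 and Hps1, and for 0 of the 11 visual cycle genes with an entry. GGATTA was found for 2 of the 11 visual cycle genes (18.2%) and for 2 of the 14 melanin genes (14.3%), and TCATGTG for 2 of the 11 RPE markers (18.2%). CACGTG was found for 8.09% of all genes, for 6 of the 14 melanin genes (42.9%), for 1 of the 11 visual cycle genes and for 0 of the 11 RPE markers. Among the 12047 genes with an entry and a mean of at least 10, the shares were 7.31% for GGATTA, 2.74% for TCATGTG and 11.2% for CACGTG. None of the 3 motifs contains another, and the motifs were chosen with the levels known. A match is a description of the sequence and not a bound site.

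The 22 genes of the list of secreted and matrix proteins held 7.35% ± 0.555 of the reads, and 15 had a mean of at least 10000. After Ptgds came Cst3 with 310480.4 ± 52727, Timp3 with 271949 ± 33682 and Apoe. Enpp2, the secreted enzyme autotaxin that makes lysophosphatidic acid, had 189678 ± 14867, and Col8a2, a chain of the network-forming collagen VIII, 97002 ± 13083. Timp3 lies within an intron of another gene, so that a part of its reads may belong to that gene. Vegfa, the growth factor that the RPE secretes toward the choroid, was more variable than these, from 12562 in WT replicate 4 to 24149 in WT replicate 1 with a median of 16284. Serpinf1, which encodes the antiangiogenic protein PEDF, was at 1342 ± 257. Per length Vegfa had 319 TPM and Serpinf1 44.2. The fibulin genes Fbln1 and Efemp1 were highest in WT replicate 4, at 8564 and 4344, and at most 1307 and 1129 in the others. Frzb, a Wnt antagonist, was the list's only member under 100, with 74.

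Lysosomal genes held 2.54% ± 0.247 of the reads over 22 genes, all with a mean of at least 100. Cst3, which the secreted list also holds, made up 39.3% of the sum, which was 626829.8 to 928457 with it and 397092 to 542337 without it. Cst3 and Psap (223955 ± 27424) led, followed by Ctsd, the aspartyl protease cathepsin D, with 91977 ± 14256, and Ctsb, a cysteine protease, with 34576 ± 3930.3. Npc2, which carries cholesterol out of the lysosome, had 20222. The median SD of log2 over the list was 0.14. Lamp2, a membrane protein of lysosomes, was among its steadiest genes, with 14408 ± 779.

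Genes of outer segment phagocytosis held far fewer reads, 0.261% ± 0.0167. The integrin chains Itgav and Itgb5, which together bind the tips, had 29133 ± 3162 and 6409 ± 598. Mertk, the receptor that triggers engulfment, had 6882 ± 777, and its ligand genes Gas6 and Pros1 had 6063 and 524. Per length, Itgav had 212 TPM, Gas6 187, Itgb5 141 and Mertk 124. Rac1, the small GTPase that acts on actin, had 11796 ± 874, and Cd36, a scavenger receptor, only 117 ± 29.3. Gas6 and Pros1 were highest in WT replicate 4, Gas6 at 7934 against 5312 to 6234 in the other libraries. Anxa2, an annexin of the phagosome, was there at 14627 and at 2174 to 3441 elsewhere, the only member with an SD of log2 of at least 1.

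**Figure D2:**
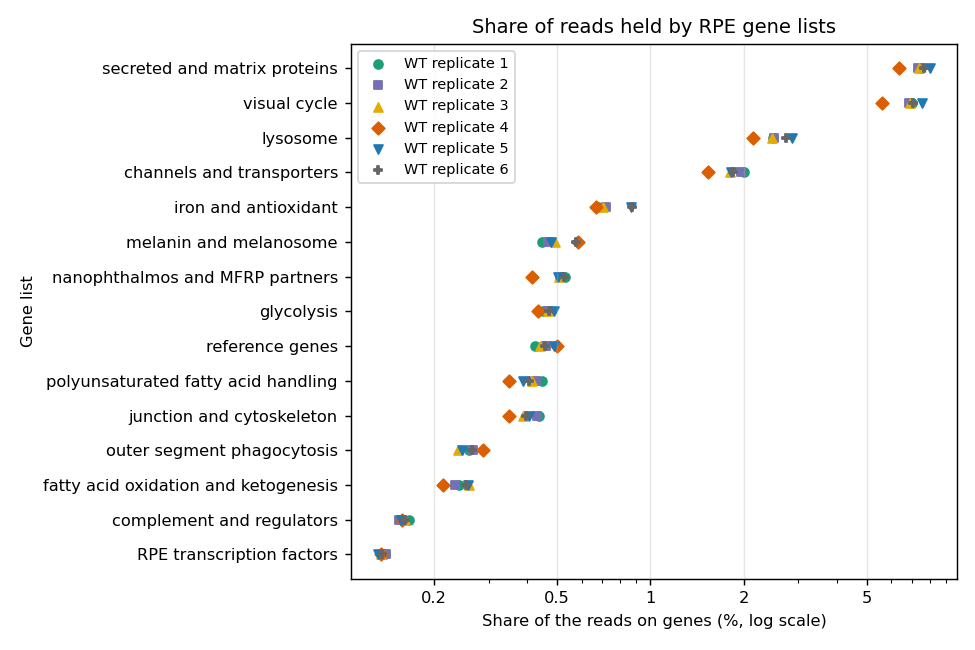
Share of the reads on genes (%, log axis) held by 15 gene lists in the 6 WT libraries, with 1 point per library. Secreted and matrix proteins (7.35%) and the visual cycle (6.81%) hold the largest shares and transcription factors (0.136%) the smallest, and WT replicate 4 lies at the low end of most lists with large shares.

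Channels and transporters held 1.83% ± 0.165 of the reads, and 15 of 22 members had a mean of at least 10000. Slc4a5, a sodium bicarbonate cotransporter, had 61117 ± 6372. The lactate transporters Slc16a8 (MCT3, basal) and Slc16a1 (MCT1, apical) had 57276 ± 8819.9 and 48483 ± 5869, and the glucose transporter Slc2a1 had 55671 ± 6295. Per length these were 1964 TPM for Slc16a8, 1241 for Slc2a1, 856 for Slc16a1 and 822 for Slc4a5. Kcnj13, the apical potassium channel Kir7.1, had 19856 ± 2980.1. It was the only one of 90 potassium channel genes with a mean of at least 10000. Among all 365 solute carrier genes, 296 had a mean of at least 10 and 20 a mean of at least 10000, and the family held 3.02% ± 0.15 of the reads. Best1, the chloride channel bestrophin-1 and a common marker of the RPE, stood apart from the other markers at 9.33 to 30.9 normalized counts and 0.583 TPM. It was the only one of 12 RPE markers with a mean under 100.

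The gene for MFRP, a membrane glycoprotein of the apical RPE and the subject of the study, had 45442, 43233, 38949, 30132, 39039.6 and 43333 in WT replicates 1 to 6. The gene lies at chr9:44101729-44109187 on the plus strand. It ranked 58 by reads and 119 per length (722 TPM), and it overlaps 3 other annotated coding genes, so that its level is uncertain. Of other genes linked to eye size, Tmem98 had 53046 ± 7449 and Myrf, the factor that binds TMEM98, 28777 ± 3945. Adipor1, which encodes a receptor-like membrane protein, had 13372 ± 870.4 with an SD of log2 of 0.095. Prss56, a serine protease gene, was at 58.3 in WT replicate 4 and 4.83 to 17.8 in the others.

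Melanin and melanosome genes held 0.508% ± 0.0585 of the reads, and all 19 had a mean of at least 100. Dct, which acts on dopachrome, had 48293, 55113, 53943, 70476, 53955 and 71015 in WT replicates 1 to 6, and Tyrp1, a melanosomal oxidase, 18669, 18905, 23195, 25556, 22518 and 28006. Both were highest in WT replicates 4 and 6. Not all members shared this order. Of the 19 genes, 5 were highest in WT replicate 4, 5 in WT replicate 6 and 5 in WT replicate 1. Of all 12757 genes, 22.9, 12.1 and 24.3% were highest in WT replicates 4, 6 and 1. In WT replicate 4, 7 of the 19 genes were lowest, as were 32.4% of all 12757. Tyr, the enzyme of the first step, was highest in WT replicate 1 and lowest in WT replicate 4, with 16701 ± 1009.6 and an SD of log2 of 0.09. Pmel, which forms the fibrils of the melanosome, ran from 7243 in WT replicate 1 to 15304 in WT replicate 4, and Mlana and Mlph also had their lowest value in WT replicate 1, with 2099.5 and 1039, and highest values of 4498 and 2631. Pmel overlaps 2 other coding genes. The list of choroidal melanocyte markers, which shares Mlana with this one, was also highest in WT replicates 6 and 4, with sums of 35207 and 33610.2 against 24966 to 26433 in the others. Gpnmb made up 55.6% of these sums, and without it they ran from 11116 in WT replicate 2 to 14768 in WT replicate 4, with 13511 in WT replicate 6 and 13021 in WT replicate 5. The part of melanocytes in the spread of the melanin genes was not tested.

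Transcription factors held only 0.136% ± 0.00287 of the reads, and Otx2 alone made up 54.7% of them. Sox9, Lhx2 and Mitf followed with 4414 ± 752, 3524 ± 290.2 and 3105 ± 261. Per length, Otx2 was at 428 TPM, Sox9 at 83.5, Lhx2 at 62.6 and Mitf at 39.2. Among members with a mean of at least 100, Pax6 and Otx1 varied most, with an SD of log2 of 1.30 and 1.60. Pax6 was at 4507 in WT replicate 4 and between 374 and 1265 in the others, and Otx1 at 868 and between 49.3 and 178. Tfec, a relative of Mitf, was at 4.44, close to the value of 3 reads.

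Genes of metabolism were present over a wide range. Among genes of long-chain and polyunsaturated fatty acids, Acsl6, an acyl-CoA synthetase linked to docosahexaenoic acid, had 46119 ± 6544. Per length, the desaturases Fads1 and Fads2 were at 169.6 and 179 TPM, and the elongases Elovl4 and Elovl2 at 74.1 and 41.3. Cpt1a, which admits fatty acids to mitochondria, had 10258 ± 1103. In glycolysis, Aldoa held the most reads, with 49344 ± 5567, and the lactate dehydrogenase genes Ldhb and Ldha were at 659 and 93.2 TPM. Iron and antioxidant genes held 0.75% ± 0.093 of the reads, and 9 of 19 members with a mean of at least 100 were highest in WT replicate 5 and 6 in WT replicate 6. Mt1 and Mt2, the metallothioneins, show this: Mt2 had 17791, 17956, 19318, 15415, 29112 and 30774, with WT replicates 5 and 6 clear of the other 4.

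The complement list held 0.16% ± 0.00422 of the reads. C3, the central component of the cascade, was at 90.1 ± 55, and Cfb, Cfd and Cfi were at 3.19, 7.73 and 20.7. Per length C3 had 1.39 TPM. In the junction and cytoskeleton list Ezr, which links actin to the microvillar membrane, had 31973 ± 5786, and the simple-epithelium keratin genes Krt18 and Krt8 had 24316 ± 3698 and 8269.8 ± 1194. Cdh3 and Cldn1, adhesion genes, had 7124 and 22026. Cldn19, a claudin gene, was at 586 in WT replicate 4 and at 1.97 to 78.4 in the others.

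Between WT libraries the typical gene varied little. The median SD of log2(normalized count + 1) was 0.152 over the 12757 genes whose mean reached 100, where counting error alone gives 0.0515. It was 0.430 for genes with means of 10 to 100, 0.177 for 100 to 1000, 0.125 for 1000 to 10000 and 0.164 above 10000. Counting error fell from 0.253 to 0.0112 over the same range. Without WT replicate 4 the median was 0.129 over the same 12757 genes, 0.0991 for 1000 to 10000 and 0.0989 above 10000, so that the larger spread of the most abundant genes was not seen without that library.

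**Figure D3:**
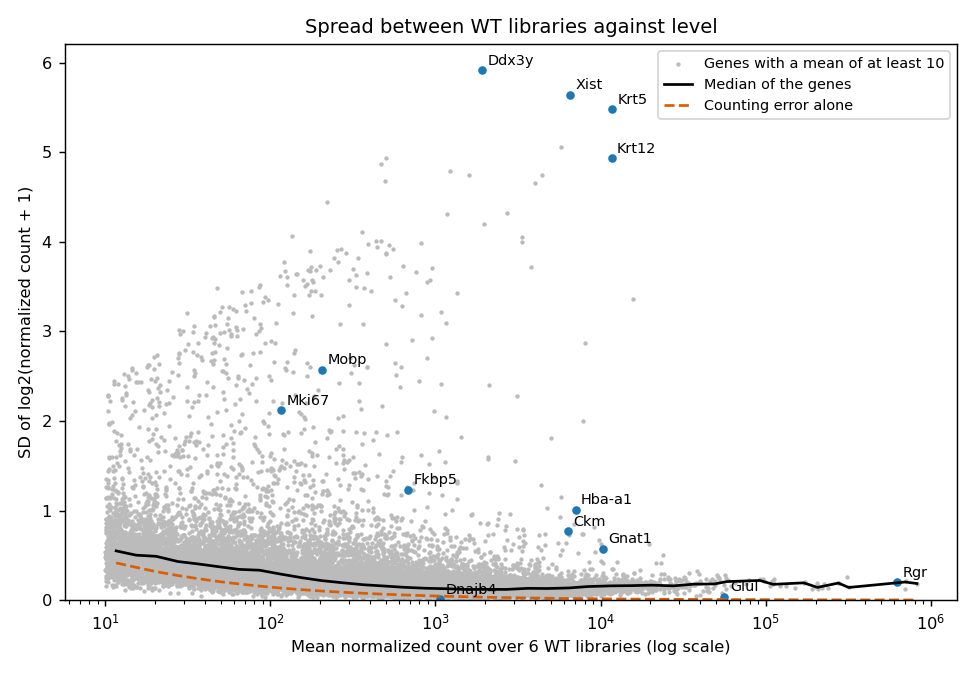
SD of log2(normalized count + 1) over the 6 WT libraries (y) against the mean normalized count (x, log axis) for the 17706 genes whose mean reached 10 (grey points), with the median of the genes (black line) and the SD that counting error alone gives (dashed orange line). The median stays above the counting error at all levels, and named genes such as Ddx3y, Xist and Krt5 lie far above it.

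Of the 5459 genes whose mean reached 1000, the 15 with the smallest SD of log2 had values of 0.0131 to 0.0273. Dnajb4, a cochaperone, had 1079.8, 1063, 1065, 1064, 1049.6 and 1066 in WT replicates 1 to 6, and its SD of log2 was 0.013 where counting error gives 0.045, so that a value this small lies within counting error. The others were the adaptor Crk, the mitofusin Mfn1, the chromatin insulator Ctcf, Gtf3c4, Tomm70a, Fbxw11, the nuclear import receptor Kpnb1, Tox4, Cops2, Ppp1r2, Cluh, Arl2bp, Dlst and Pik3r4. At a higher level Glul, glutamine synthetase, ran only from 53679 to 57266, with an SD of log2 of 0.038. Among reference genes Sdha (0.064), Ywhaz (0.079) and Tbp (0.095) had the smallest SD of log2 and Ppia the largest (0.22).

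An SD of log2 of at least 1 was reached by 316 of the 12757 genes, or 2.48%, and 302 of these 316 were highest in WT replicate 4. Of all 12757 genes, 22.9% were highest in that library. Of the 302 genes, 222 had their second value in WT replicate 2, and 183 in WT replicate 2 followed by WT replicate 6. Without WT replicate 4, 160 genes reached an SD of 1, of which 154 also reached it with that library, and 141 of the 160 were genes whose highest value of all 6 was in WT replicate 4. The lists of RPE functions, metabolism, complement and reference genes held 227 genes with a mean of at least 100. Of these 227, 10 reached an SD of 1 (4.41%, against 2.48% of all 12757 genes): Cdh1, Cp, Anxa2, F11r, Fabp5, Cldn19, Efemp1, Otx1, Fbln1 and Pax6.

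The sex-linked genes Ddx3y and Xist had the largest SD of log2, and keratins of stratified epithelia came next. Krt5, a basal-layer keratin, had 124, 4496, 0, 63798, 121 and 1602 in WT replicates 1 to 6. Krt12, the keratin of the corneal epithelium, had 13.8, 134, 3.11, 69564, 134 and 26.1. Krt13, a keratin of moist stratified epithelia such as the conjunctiva, had 56.2, 2016, 3.11, 13350.1, 31 and 845. WT replicate 4 was the highest for all 3, and the libraries differed in which keratins they held: WT replicates 2 and 6 came next for Krt5 and Krt13 but had at most 134 of Krt12. Among the 30 most variable genes were 9 keratin genes, together with desmosomal genes (Dsg3, Dsg1a), the mucin Muc4 (6.22 to 18102) and the water channels Aqp3 (1.04 to 6272) and Aqp5 (2.07 to 11465).

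The ocular surface list of 13 genes summed to 13091, 27435, 12381, 273576, 12786 and 17927 in WT replicates 1 to 6, and all 13 members were highest in WT replicate 4. Its share of reads was 0.939% there. Perp and Dsp, junction genes that are not limited to stratified epithelia, made up most of the sum in WT replicates 1, 3, 5 and 6: Perp had 7464 to 8104 and Dsp 3861 to 4403 outside WT replicate 4. The RPE markers summed to 1583274 in WT replicate 4 and to 2052471 to 2369913 in the others, and 10 of 11 members with a mean of at least 100 were lowest there. In libraries of a whole dissected tissue, fewer cells of a type and less RNA per cell cannot be told apart. The part of ocular surface RNA in the other features of WT replicate 4 was not tested.

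Several other gene groups were also highest in WT replicate 4. The ciliary body and iris list summed to 57187 there and to 47902 to 53096 in the others, with Wls, a carrier of secreted Wnt proteins, at 39.3% of the sum. Of its 12 members with a mean of at least 100, 9 had their highest value in WT replicate 4 and 2 their lowest. The members that differed most included Col9a1, a cartilage-type collagen chain, with 2442 against 80.8 to 193 and Zic1, a zinc finger factor, with 974 against 53.1 to 198. Immediate early genes summed to 13587 there and to 4386 to 4820.0 in the others. Of these, Klf4, a factor of epithelial differentiation as well, had 3138 and Junb 1043, while Egr1 was highest in WT replicate 1 (545) and Fos was at 46.5 to 153. Proliferation genes summed to 3960.5 against 2022 to 2269.8, with Mki67 at 567 against 10.8 to 51.2 and Top2a at 428 against 8.86 to 39.2. Pcna, which also serves DNA repair, made up 27.6% of the list's sum.

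**Figure D4:**
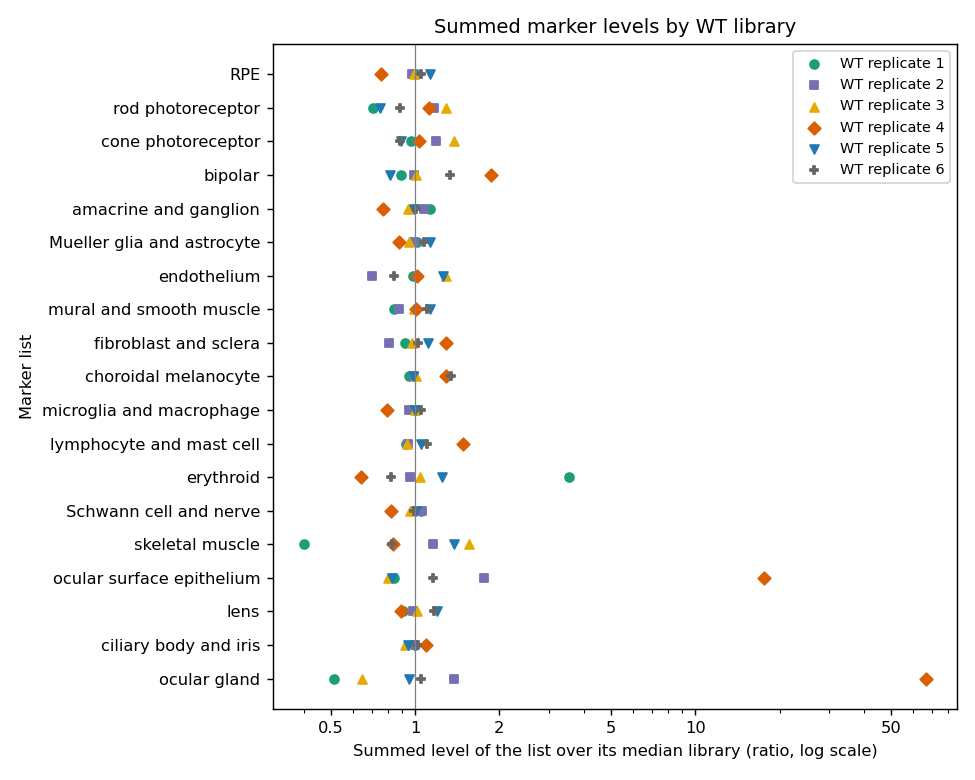
Summed normalized counts of 19 marker lists in each WT library, divided by the median library of the list (ratio, log axis). WT replicate 4 lies far to the right for the ocular surface (273576) and ocular gland (11582) lists and to the left for the RPE list. Aqp5 made up 94.8% of the ocular gland list over all libraries, and without Aqp5 WT replicate 5 was the highest (134). WT replicate 1 lies to the right for the erythroid list (53444) and to the left for skeletal muscle (21653).

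Photoreceptor transcripts were present in every library. Gnat1, rod transducin, had 5794, 12587, 15113, 12694, 6256 and 9499.8 in WT replicates 1 to 6. WT replicates 1 and 5 were the lowest and WT replicate 3 the highest. The 19 rod genes held 0.256% ± 0.0671 of the reads, and 13 of them were lowest in WT replicate 1 and 11 highest in WT replicate 3. Gnb1 and Rom1 did not share this pattern, with an SD of log2 of 0.079 and 0.17 against 0.58 for Gnat1. Cone genes summed to 1962 to 3050.3. The part of photoreceptor RNA in the spread of Rdh12 (0.58) and Crx (0.60), 2 genes of the RPE lists that rods also express, was not tested, and Rdh12 was likewise lowest in WT replicates 1 (166) and 5 (200.4) and highest in WT replicate 3 (439).

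Blood and muscle genes varied in other libraries. The globin gene Hba-a1 had 20136 in WT replicate 1 and 2617 to 6102 in the others, and the erythroid list was 5.53 times higher in its highest than its lowest library. Alas2, the erythroid enzyme of heme synthesis, was also highest in WT replicate 1, at 744 against 71.5 to 143. Skeletal muscle genes ran the other way, with a sum of 21653 in WT replicate 1 and up to 83881 in WT replicate 3, and all 13 members with a mean of at least 100 were lowest in WT replicate 1. Ckm, muscle creatine kinase, had 2254 in WT replicate 1 and 4967 to 9709 in the others. Myh3 and Myh15, myosins of developing and extraocular muscle, followed neither, with 766 and 359 in WT replicate 6 and at most 158 and 129 elsewhere.

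Endothelial genes were steadier, with sums of 11867 to 21866, and 13 of 14 were lowest in WT replicate 2. Plvap, a gene of fenestrated endothelium such as that of the choriocapillaris, had 1599.8 to 3080.4 with a median of 2485. In some marker lists a single gene carried the sum. Csf1r made up 85.7% of the macrophage list with a mean of 17256, while the defining genes Cx3cr1, Aif1 and P2ry12 were at 60.8, 35.2 and 11.8. Slc6a9 made up 90.7% of the amacrine and ganglion list and Trpm1 79.4% of the bipolar list, with means of 15856 and 7329, while Gad2 and Grm6 were at 28.4 and 45.5. Cryab made up 90.9% of the lens list, and Cryaa was at 1.37, under the value of 3 reads. These sums therefore say little about the cell type that names the list. Lymphocyte and mast cell markers other than Kit were at 40.5 or less.

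Sex-linked genes split the libraries 2 against 4. Xist, the RNA of the inactive X chromosome, had 21004 and 18183 in WT replicates 3 and 4 and 3.94 to 57.6 in the others. The Y-linked gene Ddx3y had 3738, 3444, 1957 and 2308 in WT replicates 1, 2, 5 and 6 and 0 in WT replicates 3 and 4, and Kdm5d, Uty and Eif2s3y, at 1 normalized count or less in WT replicates 3 and 4, followed it. Xist and the 4 Y-linked genes were the only genes of the 30 most variable that were not highest in WT replicate 4. No library held high values of both.

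Without WT replicate 4, 19 genes that were not highest in it reached an SD of log2 of at least 1. Beside the 5 sex-linked genes they included Mobp, a myelin gene, with 326, 706, 31.1, 148, 11.1 and 8.7 in WT replicates 1 to 6, and Adgre1, the macrophage receptor F4/80, with 321 in WT replicate 6 and 42.3 to 99.1 in the others. Aif1, another macrophage gene, was also highest in WT replicate 6, at 108 against 14.8 to 28.2. Mbp, a major myelin gene, had 1559 to 3716. The part of nerve tissue in these values was not tested.

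The glucocorticoid-responsive gene Fkbp5, which encodes a cochaperone of the receptor, had 145, 263, 496, 798, 921 and 1458 in WT replicates 1 to 6, a 10.1-fold range. Zbtb16, a transcription factor of the same list, had 22.7, 20.6, 103, 176, 115 and 258. Both genes were lowest in WT replicates 1 and 2 and highest in WT replicate 6. Pdk4 (257 in WT replicate 1 to 715 in WT replicate 6) and Angptl4 (956 to 3297), which govern fuel use, also had their lowest and highest values in these libraries. Other members did not: Sgk1, a kinase with a mean of 43867, had an SD of log2 of 0.10, and Per1 was highest in WT replicate 2. Of 12 members with a mean of at least 100, 5 were highest in WT replicate 6 and 6 were lowest in WT replicate 1. Hspa5, the chaperone of the endoplasmic reticulum, had 17913, 16542, 21181, 19336, 30902 and 32972, with WT replicates 5 and 6 above the other 4.

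**Figure D5:**
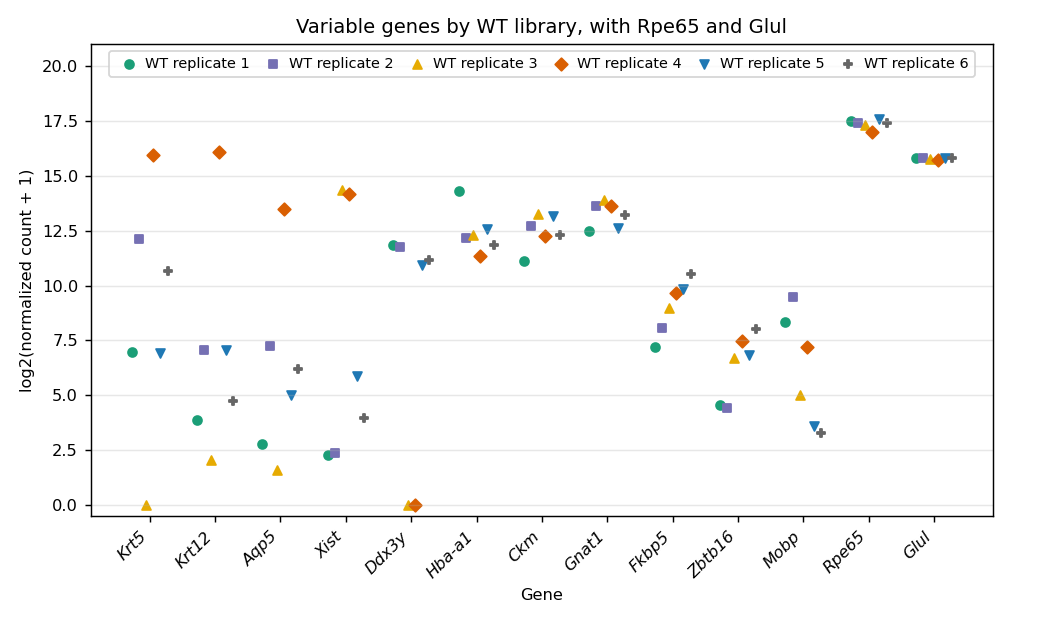
Level of 11 variable genes in each WT library, as log2(normalized count + 1), beside Rpe65 and Glul. Keratin genes and Aqp5 are highest in WT replicate 4, Xist is high in WT replicates 3 and 4 where Ddx3y is at 0, Hba-a1 is highest in WT replicate 1, and Fkbp5 and Zbtb16 are highest in WT replicate 6 (1458 and 258 normalized counts).

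Genes of the circadian clock had a median SD of log2 of 0.18, against 0.152 over all 12757 genes whose mean reached 100. Dbp, an output gene of the clock with a strong daily rhythm, had 8986 to 13542 with a median of 12671, and Nr1d1, a repressor of the clock, 3753 to 4788. Arntl, whose rhythm runs opposite to that of Nr1d1, had 207 to 546 with a median of 309. Interferon-responsive genes had a median SD of log2 of 0.14, and Ifit3, an induced antiviral gene, was at 2349 ± 158. Nnt, the mitochondrial transhydrogenase gene that carries a deletion in C57BL/6J mice, was at 4.43 to 9.29 in all 6 libraries, near the value of 3 reads.

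Of the remaining lists, the heat shock genes summed to 72371 to 101980.0 and the sum, of which Hspa8 made up 33.3%, was lowest in WT replicates 1 and 2 and highest in WT replicates 5 and 6. Of the 13 members, 5 were highest in WT replicate 4, such as the inducible Hspa1b with 3592 against 342 to 893 and the small heat shock gene Hspb1 with 1170.3 against 182 to 351. The hypoxia list summed to 67089 to 88713, and Slc2a1 made up 70.3% of it. Fibroblast and sclera genes summed to 19743 to 31664, with Dcn, a matrix proteoglycan, as the leading gene (25.8%). Mural and smooth muscle genes summed to 9442 to 12687, led by the smooth muscle actin gene Acta2 (44.6%). The Mueller glia and astrocyte list summed to 417366 to 541726, but Apoe, which the RPE list of secreted proteins also holds, made up 42.8% of it.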

How the data were processed

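Each sample was the RPE of both eyes, taken from eyecups without the front of the eye and the retina. The authors made stranded, ribosomal RNA-depleted paired-end libraries, aligned the reads to the mouse genome build mm10 and counted them per gene with Rsubread at standard parameters, and divided the counts by DESeq2 size factors over all 12 libraries. The deposited values are this signal, reads divided by a size factor (normalized counts). The deposited table also holds the authors' log2 fold changes between genotypes with their standard errors, a test statistic (score) and p-values, which were not used. Versions of the authors' tools are not given in the sources used here. By default that counting does not use strand, so that reads of overlapping genes cannot be told apart.

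Whole reads were recovered from each WT column (tolerance 0.01) and gave shares of reads and, with GENCODE M21 exon lengths, TPM. Spread is the SD of log2(normalized count + 1), a pseudocount of 1, over 6 libraries, beside the SD expected from counting, from 200 draws. On simulated data it was checked only that genes given a fixed large SD passed the threshold of 1. The SD expected from counting was not checked in this way. The 25 genes with the highest means and the 25 highest per length were named, with the 30 most variable genes (mean of at least 100), the 15 least variable (mean of at least 1000), and in each list the leading, the low and the most variable members. Some results are not reported here. Other genes named were chosen after their values were seen. The members and lists were chosen with earlier results of these data known. Families, copies and motifs were chosen after values were seen. The libraries held 29218135 to 33152725 reads on genes, and floors and counting SDs cover counting error only. Alternatives covered denominators, exon length, filters, pseudocounts, scaling and leaving out each library. Python 3.11.15, numpy 2.4.6, pandas 2.3.3, R 4.3.3 and edgeR 4.0.16 were used.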

Additional observations from a re-analysis of the deposited data

Results flagged for a closer look

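In 98 sets of 6 values (43 summed lists and 55 genes, namely the 25 with the highest means and the 30 with the largest SD of log2 over these libraries), the highest or the lowest library was compared with the others by the gap to its nearest neighbour over the whole range, on log2(value + 1), against Dixon's 95% critical value. In 17 sets a library lay beyond it, and in all 17 it was WT replicate 4. Chance gives about 1 in 20 sets, but this rate does not hold for genes chosen by their spread, such as Krt12 and Slurp1, and the lists share genes and libraries.

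WT replicate 4 was the lowest for the summed visual cycle list (1626622 normalized counts), the RPE markers (1583274), the channels and transporters (448050.0), the nanophthalmos genes and MFRP partners (121163), the genes of polyunsaturated fatty acids (101953) and the macrophage list (16498), of which Csf1r was 85.7% over all libraries. Without Csf1r the macrophage list was highest in WT replicate 4, at 3577 against 2399 to 3496. It was also the lowest for Rgr (472739), Enpp2 (162076), Arl6ip1 (96831) and Bsg (83111). It was the highest for the ocular surface list (273576), the immediate early list (13587), the ocular gland list (11582, of which Aqp5 was 94.8% over all libraries), the proliferation list (3961) and the lymphocyte and mast cell list (1354, of which Kit was 91.1% over all libraries). It was the highest for Krt12 (69564), a corneal keratin, and for Slurp1 (2628), a secreted protein of stratified epithelia. Without Aqp5 the ocular gland list was highest in WT replicate 5 (134), and without Kit the lymphocyte and mast cell list was highest in WT replicate 6 (129).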

How the results depend on the processing

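Of 380 values recomputed under other settings, 334 moved by less than the spread between libraries, or within 1.5 times for counts and ratios, and 46 moved by more. None changed direction, since no value is a signed difference. Without mitochondrial genes, the share of the first 10 genes was 13.03%, of the secreted and matrix proteins 8.02%, of protein-coding genes 94.9% and of processed pseudogenes 3.88%. With reads per exon length, the first 10 genes held 26.8%, 131 genes held 50%, and the lists held 7.74% (visual cycle), 0.329% (melanin), 3.13% (lysosome) and 7.95% (secreted). The median spread was 0.242 from edgeR's biological coefficient of variation divided by ln 2, and the cause was not tested. Genes with an SD of at least 1 numbered 827 at a mean of at least 10, where more genes are counted, 209 with at least 10 in every library, and 160 to 355 when 1 library was left out (160 without WT replicate 4). They numbered 14 without the genes highest in WT replicate 4, a setting chosen after seeing the data. The highest over the lowest library was 782 for the ocular surface list by the mean of log2 values, 2.22 to 22.1 with 1 library left out (2.22 without WT replicate 4), 1.95 to 5.53 for the erythroid list and 1.88 to 3.87 for skeletal muscle (both lowest without WT replicate 1). Of the other 219 values, 192 moved by less and 27 by more. Genes with a mean under 100 are limited by depth. No paired analysis was possible because only 1 group is described.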
